A study of Mus musculus with 6 samples.

Results

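Cystine import, glutathione synthesis and the genes that set a cell's exposure to ferroptosis were examined in B16F10.9 cells, a melanin-forming melanoma line that arose in C57BL/6 mice. The 10 genes were taken by symbol for their roles, in a network for which earlier results of these data were known, and were Slc7a11, Slc3a2, Gclc, Gclm, Gss, Gpx4, Aifm2, Acsl4, Tfrc and Fth1, out of 39179 genes in the table. Sequencing covered 6 libraries: 3 came from untreated cultures, and 3 from cultures exposed to recombinant murine IFN-gamma for 24 h. The labels state a concentration of 50 µg/ml, a unit that could be a slip for ng/ml, the common range for this cytokine. Cells were seeded in triplicate, the labels do not say how separate the cultures were, and the authors' p-values may therefore measure technical spread only.

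Ferroptosis is a form of cell death driven by iron-dependent peroxidation of membrane lipids. Cystine enters the cell through system xc-, is reduced to cysteine and becomes the limiting building block of glutathione, which the selenoenzyme GPX4 uses to reduce lipid hydroperoxides. Iron taken up through the transferrin receptor promotes the peroxidation, and ferritin stores iron in a safe form. ACSL4 activates the polyunsaturated fatty acids that are most easily oxidised, for use in phospholipids. IFN-gamma from T cells has been described to lower the genes of system xc- in tumour cell lines, and the comparison shows where the parts of this network stood with and without the cytokine.

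Levels are given as FPKM, fragment counts scaled to transcript length and to library size, so that levels of different genes can be set side by side. The authors' deposited table holds 1 FPKM value per gene and group, so that no level below carries an SD, an n or a value per library, the spread between libraries cannot be shown, and read depth is unknown. The words rose and fell are kept for genes with a q-value under 0.05 in the authors' deposited table, which tested the groups over their libraries. By this rule 23.4% of the 17021 tested genes rose and 20.9% fell. The treatment was visible in Irf1, a transcription factor gene induced by IFN-gamma, which rose from 10.2 to 482 FPKM. The 7 melanocyte markers stood between 78.7 and 2871 FPKM in untreated cells and between 105 and 4045 FPKM after IFN-gamma. The 9 markers of leukocytes, endothelium, epithelium and fibroblasts stood at 0.197 FPKM or less in both groups, 7 of them under 0.1 FPKM in both, with Cd3e and Krt5 among those listed at 0 after IFN-gamma. One property of the whole table touches the results below. The log2 ratio of IFN-gamma over untreated FPKM followed transcript length, with a median of -0.49 among 817 genes around 964 nt and of 0.64 among the 817 longest genes, and its part in any ratio was not tested. The ratios of the 10 genes and the medians of gene lists are therefore also given with the median of genes of like length taken off, and the fold changes of single pathway genes are as deposited.

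Of the 10 genes, all of them tested, 6 fell, 2 rose and 2 were not called. The falls were those of Slc7a11, Gpx4, Fth1, Tfrc, Gss and Gclc, and the rises those of Aifm2 and Acsl4, of which that of Acsl4 (log2 ratio 0.40) came to between -0.0032 and 0.17 under 3 ways of removing the length trend. The share that fell, 60%, stood beside 20.9% of all tested genes, and the share that rose, 20%, beside 23.4%. All 10 reach 5 FPKM in a group; over the tested genes that do so, with p-values adjusted again among them, 28.8% fell and 29.7% rose, and from 1 FPKM upward 25.8% fell and 28.4% rose. A q under 0.01 was met by 4 falls and 1 rise among the 10, beside 17.2% and 19.5% of all tested genes. A change of at least 1.5-fold was also met by 4 falls and 1 rise, beside 15.6% and 17.7%. A change of at least 2-fold left 2 falls, Slc7a11 and Gpx4, and the rise of Aifm2, beside 8.88% and 9.69%. The median log2 ratio of the 10 was -0.47, against 0.03 for all tested genes, and it was -0.50 with the length trend taken off. In a bulk RNA sample, fewer cells that express a gene and less RNA per cell cannot be told apart.

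**Figure D1:**
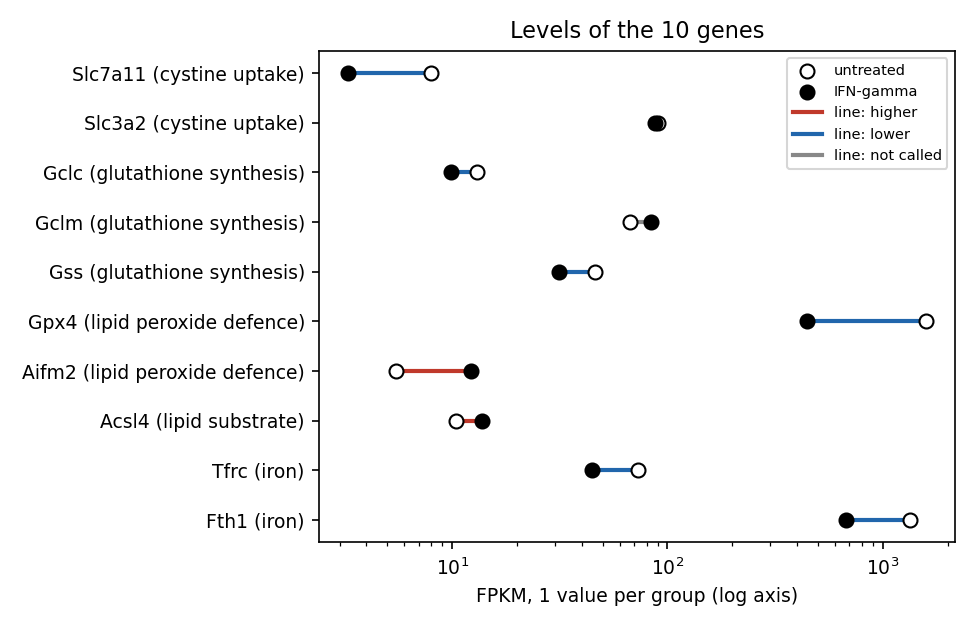
FPKM of the 10 genes on a log axis, with 1 value per group: open circles are untreated cells, filled circles cells after IFN-gamma, and the line between them is blue for a gene called lower, red for higher and grey for not called. Gpx4 and Fth1 stand at the right end, at 1587 and 1346 FPKM in untreated cells, and Slc7a11 is the lowest of the 10 after IFN-gamma at 3.30 FPKM.

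Slc7a11 encodes xCT, the light chain of system xc- that carries cystine in exchange for glutamate. Untreated cells held 8.004 FPKM and treated cells 3.30 FPKM, 2.43-fold less (log2 ratio -1.28). The authors' deposited table gives it a q of 0.00019, which belongs to the smallest p that table holds, 5e-05. This p is common, with 4545 called genes among the 17021 tested at it. The fall moved Slc7a11 from the 54.5th to the 38.2nd percentile of expression among tested genes. Slc7a11 has the longest transcript of the 10, at 9223 nt, and genes of that length had a median log2 ratio of 0.64, so that its ratio with the length trend taken off was -1.92. It lay at the 9.20th percentile of all tested genes by ratio, and at the 2.08th percentile among the 817 genes of like length. The gene lies on chromosome 3, on the minus strand, and the locus in the authors' table runs from 50364936 to 50443613 (GRCm38) with no other gene in it.

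The Slc7a11 promoter is shown because it carries elements known to respond to amino acid supply. The window covers 250 bases before and 50 after the start site, at chr3:50443564-50443863 on the minus strand (RefSeq, GRCm38.p6), with the matches to the motifs searched in capitals.
Slc7a11: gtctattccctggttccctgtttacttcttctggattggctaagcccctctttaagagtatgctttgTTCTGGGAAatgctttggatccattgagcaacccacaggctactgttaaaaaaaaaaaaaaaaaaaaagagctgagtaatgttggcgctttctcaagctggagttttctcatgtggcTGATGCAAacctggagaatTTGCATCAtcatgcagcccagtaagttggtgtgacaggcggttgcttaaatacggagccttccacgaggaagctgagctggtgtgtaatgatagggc
The amino acid response element, searched as TGATGCAA on both strands, matched at bases -66 to -59 and, on the opposite strand, at -47 to -40 from the start site. It is the element that ATF4, the transcription factor of amino acid shortage, is known to bind. The gamma-activated site, searched as TTCNNNGAA and known from promoters that respond to IFN-gamma, matched at -183 to -175. Of 32851 RefSeq promoter windows of the same length, 0.895% held the first motif and 8.30% the second, so that the first is rare and the second common. The antioxidant response element TGACNNNGC, present in 12.4% of windows and known to be bound by NRF2, and the core of the interferon-stimulated response element, present in 3.44%, did not match in this window. Windows were found for 9 of the 10 genes, not for Gclc. Among those 9, Slc7a11 alone held the first 2 motifs, Gclm alone the antioxidant response element, and none the last.

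Slc3a2 encodes 4F2hc (CD98), the heavy chain that brings Slc7a11 and other amino acid transporters to the cell surface. Its level was 90.9 FPKM without and 87.2 FPKM with IFN-gamma, and it was not called, with q = 0.74 in the authors' deposited table. Its log2 ratio of -0.06 was so close to 0 that its sign depended on the scaling, since rescaling to equal sums (TPM) shifts every gene by 0.11. The heavy chain was 11.4 times as abundant as Slc7a11 in untreated cells and 26.5 times after IFN-gamma, in FPKM. None of the other light chains tested fell as far as Slc7a11. Slc7a5 (LAT1), the importer of large neutral amino acids, stood at 59.2 and 55.1 FPKM and was not called; its locus in the table holds 183 genes, so its value depends on how fragments were assigned there. Slc7a6 fell 1.26-fold, from 17.2 to 13.7 FPKM. Of the 5 other light chains 3 were tested, of which 0 rose, 1 fell and 2 were not called, beside 23.4% rising and 20.9% falling among all tested genes. Slc7a11 made up 9.19% of the summed FPKM of all 6 light chains in untreated cells and 4.35% after IFN-gamma.

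The genes that build glutathione differed less between the groups than Slc7a11. Gclc encodes the catalytic subunit of glutamate-cysteine ligase, the rate-limiting enzyme of glutathione synthesis, and fell 1.31-fold, from 13.03 to 9.93 FPKM (log2 ratio -0.39, and -0.50 with the length trend taken off). Gclm, the modifier subunit that raises the activity of Gclc, stood at 66.9 and 83.6 FPKM and was not called. Its log2 ratio of 0.32 changed sign to -0.08 with the length trend taken off, and was 0.11 with length and level taken off. The modifier was 5.13 times as abundant as the catalytic subunit in untreated cells and 8.42 times after IFN-gamma, in FPKM. Gss, glutathione synthetase, which adds glycine in the last step, fell 1.47-fold, from 46.2 to 31.4 FPKM (log2 ratio -0.56, and -0.66 with the length trend taken off). The q-values of Gclc, Gclm and Gss in the authors' deposited table were 0.004, 0.29 and 0.02. Gss shares its locus with 8 other listed genes, of which Ggt7 (51.5 and 47.2 FPKM) and Acss2 (12.5 and 12.3 FPKM) are expressed, so part of its value depends on the assignment of fragments. Gclm shares its locus with 3 others, of which the most abundant was Dnttip2 at 16.2 and 16.3 FPKM. Gclc lies on chromosome 9 (77754535 to 77794485, plus strand), Gclm on chromosome 3 (122245557 to 122270732, plus strand) and Gss on chromosome 2 (155563181 to 155592810, minus strand), all in GRCm38.

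Gpx4 showed the largest fall of the 10 as deposited, and Aifm2, which acts in parallel to it, the largest rise. Gpx4 encodes glutathione peroxidase 4, the enzyme that reduces phospholipid hydroperoxides within membranes. It went from 1587 to 446 FPKM, 3.56-fold lower (log2 ratio -1.83). It remained one of the most abundant transcripts, at the 99.5th percentile of tested genes in untreated cells and at the 98.7th after IFN-gamma. Its transcript is short, at 995 nt, and genes of that length had a median log2 ratio of -0.49. Its log2 ratio was -1.34 with that trend taken off and -1.08 when the expression level was also taken into account, and it lay at the 6.49th percentile among genes of like length. Gpx4 lies on chromosome 10 (80047166 to 80056439, plus strand, GRCm38) and shares its locus with no other listed gene.

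Aifm2 encodes FSP1, which regenerates ubiquinol at the plasma membrane and so stops lipid peroxidation without glutathione. It rose 2.22-fold, from 5.48 to 12.2 FPKM (log2 ratio 1.15), and the ratio was 1.12 with the length trend taken off. Gpx4, Fth1 and Aifm2 share with Slc7a11 the q of 0.00019 that goes with the smallest p in the authors' deposited table. That p is held by 4545 called genes among the 17021 tested, so it does not single these 4 out. Aifm2 was the lowest of the 10 in untreated cells, and Gpx4 FPKM exceeded Aifm2 FPKM 289-fold before and 36.6-fold after IFN-gamma. The position of Aifm2 is chromosome 10, 61715263 to 61739260, plus strand (GRCm38). Genes that share its locus, H2afy2 and Mir5108, stood under 0.4 FPKM in both groups.

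**Figure D2:**
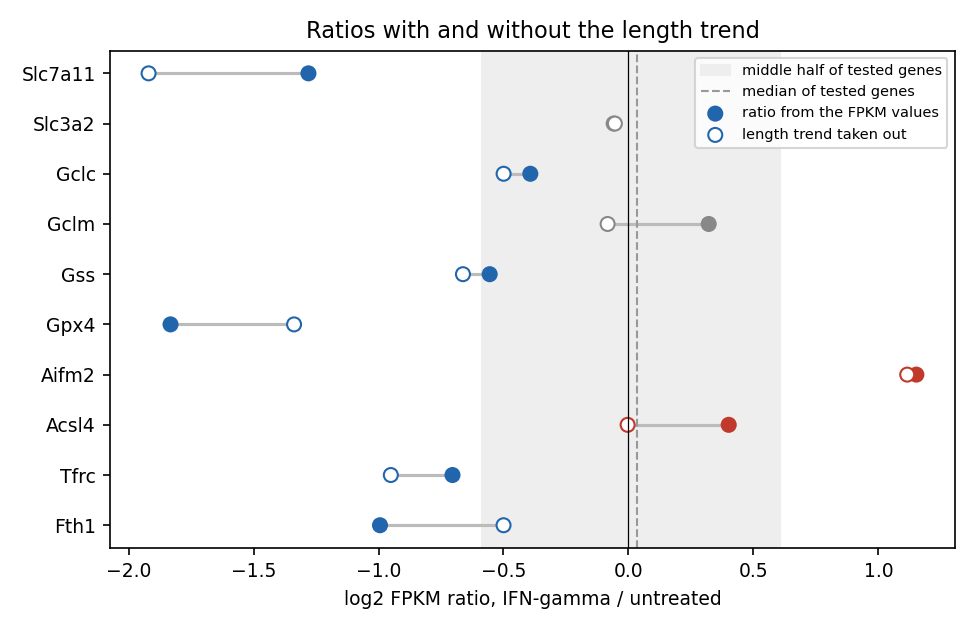
Log2 ratio of IFN-gamma over untreated FPKM for each gene, from the values as deposited (filled) and with the median ratio of genes of like length taken off (open); blue is called lower, red higher, grey not called, and the shaded band holds the middle part of all tested genes, from -0.59 to 0.61. Slc7a11, Gpx4 and Tfrc lie below the band and Aifm2 above it with either reading, while Acsl4 moves from 0.40 to -0.0032 (0.10 and 0.17 with the other removals of the length trend) and Fth1 from -0.99 to -0.50.

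Acsl4 encodes the ligase that activates arachidonic and adrenic acid for phospholipids, and its loss is known to protect cells from ferroptosis. It went from 10.5 to 13.8 FPKM, a 1.32-fold rise (log2 ratio 0.40, q = 0.011 in the authors' deposited table) that went to -0.0032 with the length trend taken off, as genes of its length, 5280 nt, had a median log2 ratio of 0.40. The ratio was 0.10 with length and level taken off, and 0.17 when length was that of the longest transcript of each gene. It lies on the X chromosome (142317993 to 142390535, minus strand, GRCm38).

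Both iron genes fell. Fth1, the ferritin heavy chain with the ferroxidase activity that loads iron into the shell, went from 1346 to 676 FPKM, 1.99-fold lower (log2 ratio -0.99). Its log2 ratio was -0.50 with the length trend taken off, at the 27.2nd percentile of genes of like length, and -0.24 when expression level was also taken into account. It was -0.84 when length was that of the longest transcript of each gene, so the size of the fall depended on the length used. Tfrc, transferrin receptor 1, which takes up iron bound to transferrin, went from 73.1 to 44.9 FPKM, 1.63-fold lower (log2 ratio -0.70, and -0.95 with the length trend taken off). The fall of Tfrc has q = 0.011 in the authors' deposited table but a test score there of -0.65, and only 38 of 7550 called genes (0.503%) had a score no larger in size. A listed pseudogene of ferritin heavy chain, Fth-ps2, stood at 0.257 and 0.225 FPKM. Copies listed only as predicted genes were not searched, and fragments shared with such copies would make the level of Fth1 uncertain. Fth1 lies on chromosome 19 (9980598 to 9985098, plus strand) and Tfrc on chromosome 16 (32608920 to 32632794, plus strand), in GRCm38.

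Ferritin and transferrin receptor mRNAs are known to be bound by the iron regulatory proteins at iron-responsive elements, hairpins with a CAGUG loop. When iron is scarce, binding in the 5′ UTR blocks translation of ferritin, and binding in the 3′ UTR protects Tfrc mRNA from decay. The elements are shown because they set these 2 genes apart from the other 8. The search required a bulged C, a stem of 5 base pairs with G-U pairs allowed and the letters CAGTG, here in capitals, in the longest protein-coding transcript that the authors' table lists (GENCODE M21, GRCm38).
Fth1, bases 93 to 109: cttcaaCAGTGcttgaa
Tfrc, bases 3321 to 3337: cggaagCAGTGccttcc
Tfrc, bases 3700 to 3716: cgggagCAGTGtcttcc
Tfrc, bases 3765 to 3781: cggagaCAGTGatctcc
Tfrc, bases 3812 to 3828: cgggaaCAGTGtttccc
Positions are counted from the 5′ end of a transcript of 929 nt for Fth1 and of 4890 nt for Tfrc. Of 21877 mouse genes with a protein-coding transcript, 1.24% held such a hairpin anywhere in their longest one, and Tfrc alone held 4. The ferritin light chain gene Ftl1, which forms the shell with Fth1, also held 1. Ftl1 fell 2.41-fold, from 2468 to 1022 FPKM. The iron regulatory protein genes Aco1 (13.9 and 12.6 FPKM) and Ireb2 (19.3 and 20.1 FPKM), named after their values were seen, were not called.

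**Figure D3:**
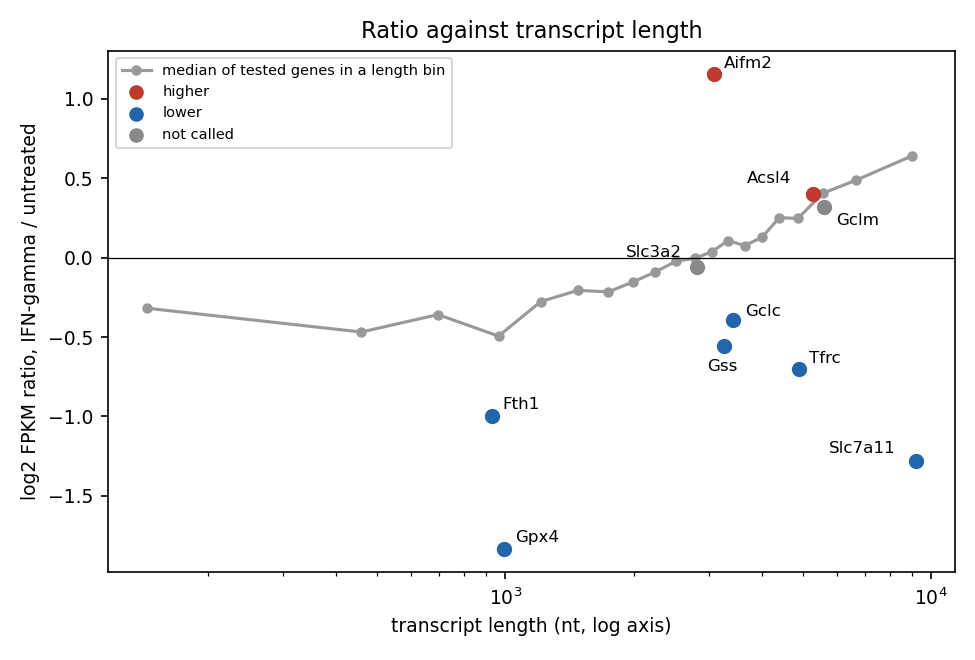
Log2 ratio of IFN-gamma over untreated FPKM against transcript length in nt on a log axis; grey points joined by a line are the medians of 20 bins of tested genes, and coloured points are the 10 genes (blue lower, red higher, grey not called). Acsl4, Gclm and Slc3a2 lie close to the grey line, Slc7a11 and Tfrc far below it at the long end, Gpx4 below it at the short end, and Aifm2 above it.

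Around the 10 genes, 170 further genes were grouped into 10 lists by role. Of the 156 that were tested 36 rose, 64 fell and 56 were not called. The share that fell, 41.0%, stood above the 20.9% of all tested genes, and the share that rose, 23.1%, was close to 23.4%. Most of these genes reach 1 FPKM in a group, and over all tested genes that do so 25.8% fell and 28.4% rose. From 5 FPKM upward 28.8% fell and 29.7% rose. The shares in the lists below are likewise set beside all tested genes, many of which are less expressed. Of the 100 called genes, 97 kept their direction when the length trend, alone or with level, was taken off. The other 3 were Sod1, Hmox1 and Pts, all called lower, whose log2 ratio turned positive with length and level taken off. As the lists were put together with earlier results of these data known, they are described by counts and medians alone. Some of the pathway genes named here share a locus with other listed genes, and their values depend on how fragments were assigned there. They are Slc7a5, Ggt7, Txnrd2, Txnip, Tkt, Irf1, Eif2ak3, Ftl1, Nfe2l2, Keap1, Mafg, Mafk and G6pdx.

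The supply of serine and cysteine had the lowest median of the 10 lists. Of 12 tested genes 9 fell (75%, beside 20.9% of all tested genes), 0 rose and 3 were not called, with a median log2 ratio of -1.34 as deposited and -1.24 with the length trend taken off. Phgdh, which commits a glycolytic intermediate to serine, fell 4.41-fold from 311 to 70.4 FPKM. Ahcy, which makes homocysteine from S-adenosylhomocysteine, fell 3.63-fold from 109 to 30.0 FPKM. Cth, which releases cysteine from cystathionine, fell 3.23-fold from 12.5 to 3.86 FPKM. The neutral amino acid carriers of the list, Slc1a4 (8.76 and 7.31 FPKM) and Slc1a5 (50.5 and 50.9 FPKM), named after their values were seen, were not called.

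The genes listed as known regulators of Slc7a11 moved in both directions. They include the kinase genes Eif2ak3 and Eif2ak4, which are not transcription factors and were not called. Of 11 tested 5 rose (45.5%), 3 fell (27.3%) and 3 were not called, beside 23.4% and 20.9% of all tested genes. Their median log2 ratio was 0.11 as deposited and turned to -0.03 with the length trend taken off. Beside Irf1, Atf3, a stress-induced factor known to repress Slc7a11, rose 6.73-fold from 8.22 to 55.3 FPKM. Atf4, the known activator named after its values were seen, fell 1.80-fold from 209 to 116 FPKM. Nrf2 (Nfe2l2), the other known activator, is counted in the list of Nrf2 regulators and targets instead. It was also named after its values were seen and rose 1.59-fold from 41.4 to 66.0 FPKM. These values concern mRNA levels, and the part of any of these factors in the fall of Slc7a11 was not tested.

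Nrf2 regulators and targets split. Of 16 tested genes 7 rose (43.75%), 6 fell (37.5%) and 3 were not called, beside 23.4% and 20.9% of all tested genes. The median log2 ratio was -0.16 as deposited and -0.15 with the length trend taken off. Divided by role with the values known, the regulators Nfe2l2, Keap1, Bach1 and Mafk rose and Mafg was not called. All the falls were among the targets. The targets that rose were G6pdx, Osgin1 and Cbr1, the last from 0.189 to 0.366 FPKM. Osgin1, an oxidative stress response gene, rose 2.30-fold from 17.3 to 39.8 FPKM. Blvrb, biliverdin reductase B, fell 3.00-fold from 95.1 to 31.7 FPKM. Tkt, transketolase of the pentose phosphate pathway, fell 2.30-fold from 367 to 160 FPKM.

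Genes that use, recycle or break down glutathione also went both ways. Of 26 tested 7 rose (26.9%), 10 fell (38.5%) and 9 were not called, beside 23.4% and 20.9% of all tested genes. The median log2 ratio was -0.06 as deposited and -0.07 with the length trend taken off. Chac1, which cleaves glutathione in the cytosol, fell 4.85-fold from 36.1 to 7.43 FPKM. Ggct, which acts on the gamma-glutamyl dipeptide released from glutathione, rose 3.50-fold from 4.60 to 16.1 FPKM. The glutaredoxin gene Glrx3 fell 3.27-fold from 203 to 61.8 FPKM. In the thioredoxin and peroxiredoxin system 3 of 15 tested genes rose (20%), 6 fell (40%) and 6 were not called, beside the same shares of all tested genes, 23.4% and 20.9%. The median log2 ratio of this system was -0.12 as deposited and came to 5.4e-05 with the length trend taken off. Txnrd2, the mitochondrial thioredoxin reductase, fell 4.72-fold from 145 to 30.7 FPKM in a locus shared with other genes. Prdx4, the peroxiredoxin of the endoplasmic reticulum, fell 3.13-fold from 162 to 51.8 FPKM. Txnip, the inhibitor of thioredoxin, rose 2.24-fold from 25.6 to 57.3 FPKM.

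The list of ubiquinone, tetrahydrobiopterin and other defence that does not need GPX4 held both enzymes and regulators. Of 20 tested genes 12 fell (60%), 1 rose (5%) and 7 were not called, beside 20.9% and 23.4% of all tested genes, with a median log2 ratio of -0.55 as deposited and -0.46 with the length trend taken off. Dhodh, which reduces ubiquinone in mitochondria, fell 2.60-fold from 37.7 to 14.5 FPKM. Gchfr, which mediates feedback inhibition of GTP cyclohydrolase and so is known to restrain tetrahydrobiopterin synthesis, fell 10.7-fold from 5.78 to 0.541 FPKM. Gch1, GTP cyclohydrolase itself, gave the single rise, from 4.12 to 5.45 FPKM, and was picked out with its values known. Selenoprotein synthesis, on which Gpx4 depends, had 3 rises (27.3%), 6 falls (54.5%) and 2 genes not called among 11 tested, beside the same 23.4% and 20.9%. Its median log2 ratio was -0.49 as deposited and -0.44 with the length trend taken off. Trnau1ap, which binds the selenocysteine tRNA, fell 4.62-fold from 105 to 22.6 FPKM. Sephs2, which makes the selenium donor, fell 2.85-fold from 38.8 to 13.6 FPKM. The selenium carrier gene Sepp1 (Selenop) rose 2.05-fold from 37.4 to 76.5 FPKM.

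Neither the lipid substrate genes nor the iron genes had a common direction. Of 20 tested genes of lipid substrates and peroxidation 6 rose (30%), 5 fell (25%) and 9 were not called, beside 23.4% and 20.9% of all tested genes. The median log2 ratio of these lipid genes was 0.13 as deposited and 0.02 with the length trend taken off. Acsl5, another long-chain acyl-CoA synthetase, rose 2.62-fold from 40.3 to 106 FPKM. Fads2, the desaturase at the entry to long polyunsaturated fatty acids, rose 2.22-fold from 66.1 to 147 FPKM. Mboat2, an acyltransferase that places monounsaturated fatty acids in phospholipids, fell 2.19-fold from 7.46 to 3.40 FPKM. Of 22 tested iron genes 4 rose (18.2%), 6 fell (27.3%) and 12 were not called, close to the 23.4% and 20.9% of all tested genes. Their median log2 ratio was -0.14 as deposited and -0.27 with the length trend taken off. Besides the fall of Ftl1, Steap3, the endosomal ferrireductase that acts after Tfrc, rose 2.01-fold from 33.7 to 67.8 FPKM.

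**Figure D4:**
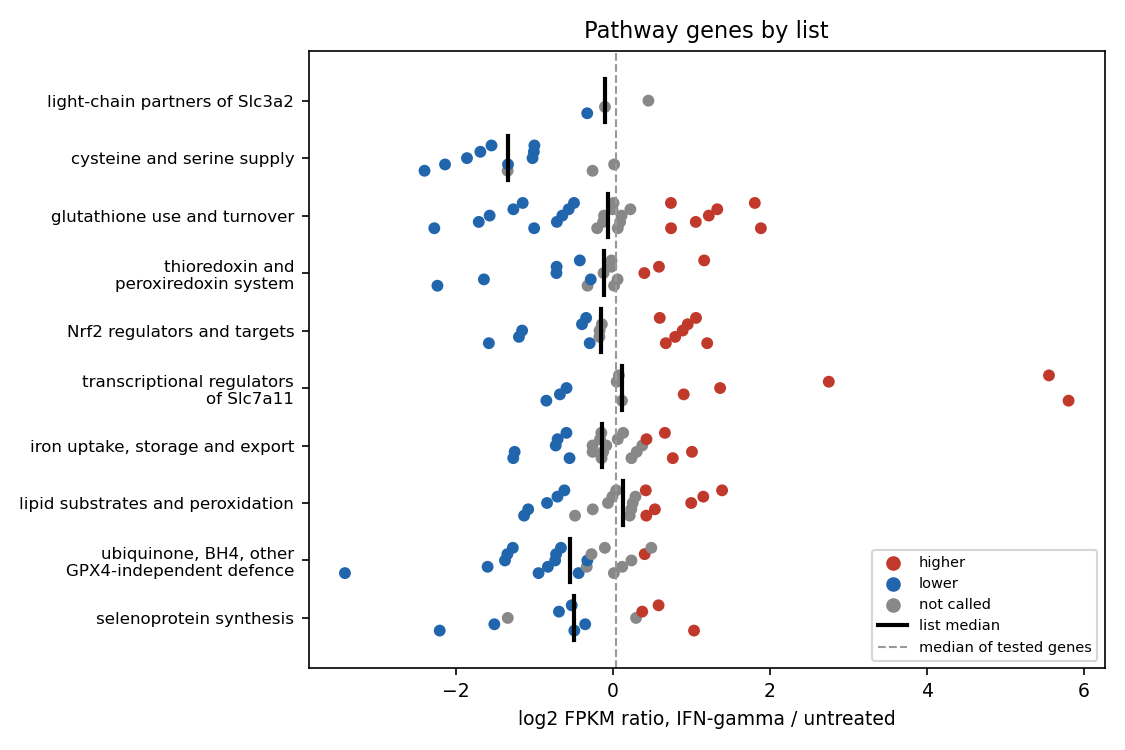
Log2 ratio of IFN-gamma over untreated FPKM for the 156 tested pathway genes, 1 point per gene, in 10 lists; blue is called lower, red higher and grey not called, the black bar is the median of a list and the dashed line that of all tested genes (0.03). The bar for cysteine and serine supply lies furthest left at -1.34, followed by ubiquinone and tetrahydrobiopterin defence (-0.55) and selenoprotein synthesis (-0.49).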

How the data were processed

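RNA of 6 libraries, made with the TruSeq RNA V2 kit (no strand marking) per the labels' protocols, was processed with TopHat2 2.0.11, Cufflinks 2.2.1 and Cuffdiff on GRCm38, per the submitters' processing notes; for parameters and annotation release the sources used here give nothing. Per gene and group there is 1 FPKM in the authors' deposited table, with a test score, p-value and q-value by the authors. Its log2 ratio by the authors runs to extreme values near 0 FPKM and was recomputed from FPKM without a pseudocount. The table's title line speaks of infected samples, and its sample cells (B16, IFN) were followed. Because there is no value per library, no model was fitted here, and calls are those of the authors' test at q under 0.05. The 2 further sheets were not used.

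Transcript length is that of the longest transcript the table lists (GENCODE M21), known for 99.0% of tested genes. The trend was the median of 20 length bins, or of 10 by 10 bins of length and level. Both were checked on simulated data with a trend of length alone and few changed genes. That check does not cover real changes that themselves follow length or level. Fragments are assigned among the genes of a locus, which 48.2% of tested genes share with another. The 10 genes and the lists were chosen with earlier results of these data known. Named pathway genes were, in each list, the 3 called genes that changed most among those reaching 1 FPKM, or the 2 most abundant where fewer than 2 qualified; some genes this rule takes are not reported here. Alternatives changed the q threshold, a minimum fold, a filter on FPKM, the pseudocount, centring, TPM scaling and the length trend. Python 3.11.15, pandas 2.3.3 and matplotlib 3.10.9 were used.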

Additional observations from a re-analysis of the deposited data

How the results depend on the processing

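No paired analysis was possible because the table holds 1 value per group, and for the same reason no library could be left out. Of 70 log2 ratios recomputed for the 10 genes, 59 kept their sign with the unlogged ratio moving by less than 1.5-fold. Small log2 ratios can pass this tolerance while changing much in proportion. Centring and TPM scaling shift every log2 ratio alike, by 0.05 and 0.11 in size, and so could not move a ratio by 1.5-fold. All larger moves came with a removal of the length trend. Slc7a11 went from -1.28 to -1.92 with the length trend taken off, to -1.89 with length and level, and to -1.93 with the longest transcript of each gene, an alternative added after seeing the data. With length and level taken off, Gpx4 went to -1.08 and Fth1 to -0.24. Slc3a2 changed sign to 0.0787 (length and level), 0.0514 (TPM) and 0.0112 (longest transcript), Gclm to -0.0833 (length) and -0.0886 (longest transcript), and Acsl4 to -0.0032 (length; 0.10 with length and level, 0.17 with the longest transcript). Fth1 was -0.84 with the longest transcript. TPM scaling shifted every gene by 0.11, more than the deposited ratio of Slc3a2.

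Of 110 counts of called genes, 81 stayed within 1.5 times. These include the rises of light chains and of cysteine and serine supply, which were 0 at the main cut-off. A stricter cut-off could not change them. Stricter cut-offs also lowered the shares of all tested genes, which were 23.4% rising and 20.9% falling at the main cut-off. They were 19.5% and 17.2% at q under 0.01, 17.7% and 15.6% with at least 1.5-fold, and 9.69% and 8.88% with at least 2-fold. Over genes of at least 5 FPKM they were 29.7% and 28.8%. At q under 0.01, rises among the 10 genes went from 2 to 1, falls of light chains from 1 to 0, rises of iron genes from 4 to 2 and of selenoprotein synthesis from 3 to 1. With a change of at least 1.5-fold, rises among the 10 went to 1, light chain falls to 0, Nrf2 falls from 6 to 3, lipid rises from 6 to 3, the ubiquinone rise from 1 to 0, and selenoprotein synthesis to 1 rise and 3 falls from 3 and 6. With at least 2-fold, the 10 genes had 1 rise and 2 falls (from 2 and 6), light chains 0 falls, glutathione use 6 falls (from 10), thioredoxin 1 rise and 2 falls (from 3 and 6), Nrf2 2 rises and 3 falls (from 7 and 6), Slc7a11 regulators 0 falls (from 3), iron 1 rise and 2 falls (from 4 and 6), lipid genes 2 and 2 (from 6 and 5), ubiquinone 0 and 5 (from 1 and 12) and selenoprotein synthesis 1 and 2. Over genes of at least 5 FPKM, rises in glutathione use went from 7 to 4. The 2-fold rule leaves out Fth1 at 1.99-fold. Depth is unknown, so which changes were too small to be seen cannot be said.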

Other observations

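Gpx4 is 1 of 24 mouse selenoprotein genes, a list put together after its values were seen. Of 19 that were tested 7 rose, 8 fell and 4 were not called, beside 23.4% and 20.9% of all tested genes; all 15 that were called kept their direction when the length trend, alone or with level, was taken off. Gpx1, the cytosolic glutathione peroxidase, rose 2.51-fold from 99.98 to 251 FPKM, and the ratio of Gpx4 to Gpx1 FPKM went from 15.9 in untreated cells to 1.78 after IFN-gamma. The largest falls beside Txnrd2 and Gpx4 were those of Selenof (Sep15 in the table), a protein of the endoplasmic reticulum whose locus holds 1 other listed gene, 3.88-fold from 1174 to 303 FPKM, and Sephs2. Rises included Selenow (Sepw1), 1.81-fold from 35.4 to 64.0 FPKM, and Selenot (Selt), 1.69-fold from 55.3 to 93.2 FPKM.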
